A study of Mus musculus with 4 samples.

Results

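The cells described here are neutrophils, the short-lived granulocytes that make up the first wave of most inflammatory responses, as they were found among CD45-high cells of aged mouse brain, aged mouse spleen and young mouse spleen. A barcode was taken as a neutrophil when it had at least 20 unique molecular identifiers (UMIs, each standing for 1 captured RNA molecule) of S100a8 and S100a9 together, at least 1 UMI of Retnlg, Csf3r, Cxcr2, Ngp or Camp, at most 1 UMI of the B cell genes Cd79a and Ms4a1, and 0 UMIs of the T cell genes Cd3d, Cd3e and Cd3g. The rule found 149 neutrophils among 26210 barcodes that had at least 500 UMIs, at least 250 genes and at most 10% mitochondrial UMIs. Of these, 80 were in the aged brain (of 13662 passing barcodes), 34 in the aged spleen (of 5647) and 35 in the young spleen (of 6901). Neutrophils therefore made up 0.586% of passing barcodes in the aged brain (95% Clopper-Pearson interval 0.465 to 0.728%), 0.602% in the aged spleen (0.417 to 0.840%) and 0.507% in the young spleen (0.354 to 0.705%). These intervals overlapped, but they cover counting error only. The cells were thus chosen by measured levels of those genes, so these levels are given below as a description only. On the S100a8 and S100a9 limit, 0 aged brain, 3 aged spleen and 0 young spleen barcodes that met every other condition had 10 to 19 UMIs, and no neutrophil of the 3 libraries had 20 to 29.

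Neutrophils are made in the bone marrow and fill their granules in a fixed order. Primary granule proteins such as myeloperoxidase (Mpo) and neutrophil elastase (Elane) are made first, in promyelocytes. Secondary granule proteins such as neutrophilic granule protein (Ngp), cathelicidin (Camp) and lactoferrin (Ltf) follow in dividing and recently divided precursors, under the transcription factor C/EBP-epsilon (Cebpe). Cells that are ready to leave the marrow carry the chemokine receptor Cxcr2 and the resistin-like protein Retnlg, and after activation they transcribe cytokines such as Il1b. The spleen of the mouse also supports granulopoiesis, while the healthy brain tissue itself holds few neutrophils.

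The study deposited 4 droplet libraries, 1 each of aged brain, aged spleen, young brain and young spleen, all from cells sorted for high CD45, the surface protein that marks blood-derived immune cells. Each condition is 1 library with no replicate, and no test of a difference between conditions was possible. Age is given only as aged or young, and strain, sex and the number of animals pooled are not stated in what was available here. The labels attach to all 4 libraries a tamoxifen protocol with tissue taken 4 weeks later for tdTomato+ NK cells, and also the cell type neuroblast, and whether either applies to these cells was not settled.

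Library depth was 57011537 UMIs for the aged brain, 40628623 for the aged spleen and 39866955 for young spleen. Neutrophils had a median of 4047 UMIs in the aged brain, 6308 in the aged spleen and 3970 in young spleen, against 2099.5, 4597 and 4093 over all passing barcodes of those libraries. Without the 10 cells that are set aside below, the neutrophil medians were 3908, 3624 and 3502 UMIs. Some barcodes passed in more than 1 library. Of the 5647 passing barcodes of the aged spleen, 4856 also passed in the young brain library, so such sharing was not particular to neutrophils. Of the 34 aged spleen neutrophils, 21 stood at such barcodes. They had a median of 2908 UMIs in the young brain against 15255 in the aged spleen. The aged spleen had the higher count at 21 of 21, by at least 3.03-fold. They included 14 of the 15 immature-leaning and 5 of the 17 mature-leaning aged spleen cells (these classes are defined below). In the aged brain 2 neutrophils stood at barcodes that passed elsewhere, and in the young spleen 1 did. The main results on mature-leaning cells are therefore also given without the shared barcodes, and for immature-leaning cells, with 1 left, no such value could be had. Without the set-aside cells, that setting leaves 12 mature-leaning aged spleen cells with 11455 UMIs (median 862, at most 1790). Against them stand 38 aged brain cells with 97475 UMIs (median 2258.5) and 18 young spleen cells with 43012 UMIs (median 2707). The aged spleen cells left are thus few and shallow.

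The 149 cells were checked against genes outside the rule. In the aged brain, 0 UMIs were found of any of the 8 T cell and 6 NK cell markers searched (the 3 Cd3 genes among them are part of the rule), and 2 UMIs of the 4 neuroblast markers, so the neuroblast label was not borne out by these barcodes. In the spleens, the NK cell markers had 37 UMIs in 6 aged spleen cells and 129 UMIs in 15 young spleen cells. The T cell markers had 7 UMIs in 5 and 8 UMIs in 7 cells. Single cells reached 17 UMIs (aged spleen) and 49 UMIs (young spleen) of the NK cell gene Gzma. B cell markers, which include the 2 genes of the rule, had a UMI in 29 aged brain, 29 aged spleen and 29 young spleen cells. Doublets with such cells were not called. Some cells carried genes of other lineages at high counts. In the aged spleen, 2 cells held 147 and 120 UMIs of the monocyte genes Fn1, Ccr2 and F13a1, and 1 cell held 9142 UMIs of the haemoglobin genes Hbb-bs, Hba-a1 and Hba-a2. Cells with at least 20 UMIs of the primary granule genes Mpo, Elane, Prtn3 and Ctsg numbered 4 in the aged brain, 1 in the aged spleen and 2 in young spleen. These 10 cells were set aside for the comparisons by lean, after their values had been seen, which left 139 neutrophils, 76 in the aged brain, 30 in the aged spleen and 33 in young spleen.

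S100a8 and S100a9, the subunits of calprotectin, which binds metal ions and is the most abundant cytosolic protein complex of neutrophils, dominated the RNA of these cells. They gave 28.97% of all UMIs of neutrophils in the aged brain, 27.0% in the aged spleen and 27.5% in young spleen. S100a8 stood at 115156 CPM (UMIs of a gene summed over the neutrophils of a library and scaled to a common total) in the aged brain, 122910 CPM in the aged spleen and 128971 CPM in young spleen. S100a9 stood at 174511, 147138 and 146152 CPM in the same order. Both genes therefore differed by less than 1 doubling between libraries. Cxcr2, the receptor for neutrophil-attracting chemokines, had a UMI in 67.5% of aged brain, 70.6% of aged spleen and 74.3% of young spleen neutrophils. Barcodes that should lack it, microglia-gated in the brain (median 2338 UMIs) and B cell-gated in the spleens (medians 4283.5 and 3882 UMIs), had a Cxcr2 UMI in 0.425%, 0.359% and 0.554% of cells. Retnlg had a UMI in 63 of 80, 27 of 34 and 28 of 35 neutrophils, against 0.880%, 0.808% and 0.813% of the same other classes. Csf3r, the receptor for the growth factor G-CSF, had one in 66.2%, 79.4% and 82.9% of neutrophils, but microglia-gated barcodes of the aged brain had it in 45.3%. Cxcr2, Retnlg and Csf3r are part of the rule, so their shares in neutrophils are a description only.

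Free RNA differed strongly between the libraries. Ttr, transthyretin of the choroid plexus, is not a neutrophil gene, and its level in aged brain neutrophils (1896 CPM) against that in barcodes of at most 100 UMIs (15952 CPM, taken as empty droplets) put the estimated share of free RNA at 11.9% of the neutrophils' UMIs. From the immunoglobulin gene Igkc the same estimate was 1.78% for the aged and 1.68% for the young spleen. The microglia list (7 of 7 genes with a UMI) summed to 2245 CPM in aged brain neutrophils against 9815 CPM in empty droplets, and the macrophage list (7 of 8) to 2407 CPM against 13143 CPM. Both totals were below their empty-droplet level but above 11.9% of it. The microglia list had a UMI in 78 of the 80 cells and reached 12522 CPM in single cells (median 1393), and the macrophage list had one in 79 and reached 18033 CPM (median 1375). Whether this RNA was free or came from the cells, and its part in the results below, was not tested. By contrast, Cxcr2 (449 against 3.81 CPM), Ngp (22891 against 109 CPM) and Il1b (470 against 14.7 CPM) were above their empty-droplet level.

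**Figure D1:**
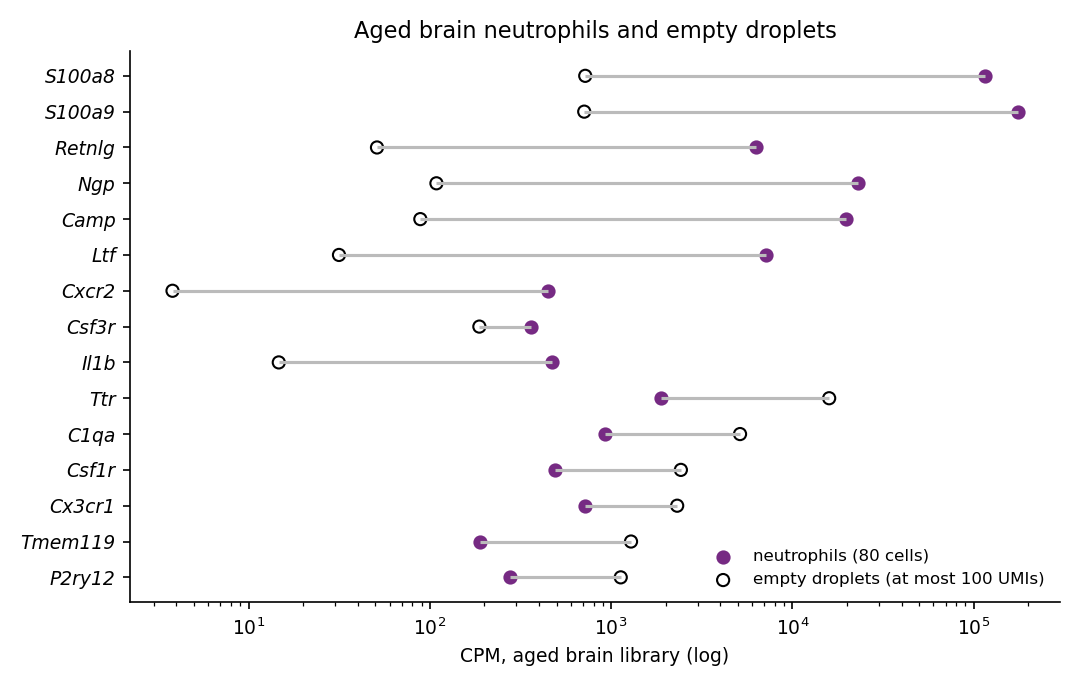
Level of 15 genes in aged brain neutrophils (filled, 80 cells summed) and in empty droplets of the same library (open), in CPM on a log axis. Neutrophil genes such as Ngp (22891 CPM in neutrophils) lie above the empty droplets, and Ttr (1896 against 15952 CPM) and the microglia and macrophage genes lie below.

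The authors' deposited cluster tables give the share of cells with a gene for a cluster and for all other cells of its library. They hold a cluster that lists the neutrophil genes for the aged brain and for the young spleen. In the authors' deposited table for the aged brain, cluster 12 had Retnlg in 91.0% of its cells (0.7% of other cells), Cxcr2 in 77.6% (0.3%), Ngp in 65.7% (1.9%) and S100a8 in 100% (9.4%). In the authors' deposited table for the young spleen, cluster 14 had Retnlg in 46.9% (0.4%), Cxcr2 in 51.0% (0.2%) and Ngp in 26.5% (2.7%). In the authors' deposited table for the aged spleen, cluster 11 listed Csf3r in 30.2% (0.8%) and S100a8 in 46.8% (20.7%). Ngp, Camp, Ltf, Retnlg and Cxcr2 were not listed for it, so no matching cluster was shown for the aged spleen. Those clusters were built on another set of cells, so their shares and the shares above have different denominators.

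Both an immature and a mature kind of neutrophil were present in every library. A cell was called immature-leaning when its UMIs of Ngp, Camp and Ltf together outnumbered those of Cxcr2 and Retnlg, and mature-leaning when they were fewer. In the aged brain 40 of 80 neutrophils leaned immature (50%, 38.6 to 61.4%), in the aged spleen 15 of 34 (44.1%, 27.2 to 62.1%) and in the young spleen 17 of 35 (48.6%, 31.4 to 66.0%). Mature-leaning cells numbered 40, 17 and 18, and 2 aged spleen cells, both among those set aside, had no UMI of the 5 genes. The intervals of the libraries overlapped, but they cover counting error only, and whether the conditions differ could not be tested. Leaving out shared barcodes left 1 immature-leaning cell of 13 in the aged spleen (7.69%), so the aged spleen share rests on barcodes that also passed in the young brain library. Within 2-fold of the dividing line lay 3 aged brain, 1 aged spleen and 1 young spleen cell, and the separation of most cells was wide. That count cannot flag a cell called on 1 UMI against 0. The lowest sum of Cxcr2 and Retnlg in a mature-leaning cell was 1 UMI in each library. Immature-leaning cells had a median of 513.5 UMIs of the 3 granule genes in the aged brain, 1365 in the aged spleen and 1513 in young spleen, against 0, 0 and 0 in mature-leaning cells.

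**Figure D2:**
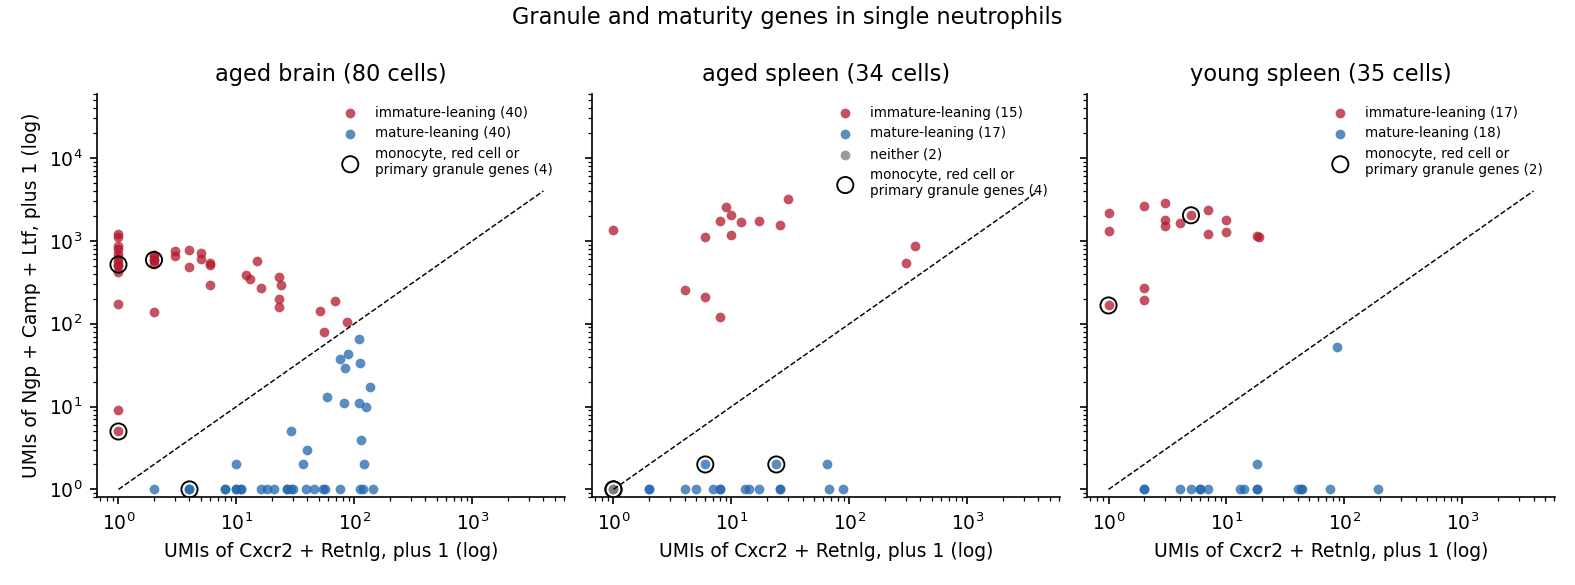
UMIs of Ngp, Camp and Ltf (y axis) against UMIs of Cxcr2 and Retnlg (x axis) in each neutrophil, both plus 1 on log axes, for the aged brain (80 cells), the aged spleen (34) and the young spleen (35); the dashed line marks equal counts and rings mark the 10 cells set aside. Cells fall into a group high in granule genes and a group with 0 or few, and 21 aged brain, 6 aged spleen and 3 young spleen cells have at least 10 UMIs of both sets.

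The genes that set the 2 kinds apart lie on 3 chromosomes. In GENCODE M21 coordinates on GRCm38, Ngp is at chr9:110419747-110423012 on the plus strand, Camp at chr9:109847379-109849617 on the minus strand and Ltf at chr9:111019271-111042767 on the plus strand. Retnlg is at chr16:48872621-48874496 and Cxcr2 at chr1:74153989-74161246, both on the plus strand. Their promoters are shown because Ngp, Camp and Ltf moved together from cell to cell (Spearman rho of Ngp and Camp 0.90 in the aged brain, 0.95 in the aged spleen and 0.93 in young spleen, over 80, 34 and 35 cells that share libraries and differ in depth), while Ngp and Retnlg ran against each other (-0.53, -0.21 and -0.59). The stretches are from RefSeq's GRCm38.p6 promoter table, 5′ to 3′ on the gene's strand, and end before the first GENCODE transcript. They are chr9:110419558-110419746 for Ngp, chr9:109849618-109849706 (minus strand) for Camp, chr9:111019042-111019270 for Ltf, chr16:48872358-48872607 for Retnlg and chr1:74153744-74153988 for Cxcr2. Capitals mark matches to the C/EBP letters TTGCNNAA or their reverse complement TTNNGCAA.
Ngp: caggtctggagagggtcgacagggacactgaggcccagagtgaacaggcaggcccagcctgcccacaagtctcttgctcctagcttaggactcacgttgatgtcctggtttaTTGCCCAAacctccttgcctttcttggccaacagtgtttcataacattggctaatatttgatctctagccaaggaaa
Camp: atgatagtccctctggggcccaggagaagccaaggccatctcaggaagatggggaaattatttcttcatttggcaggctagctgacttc
Ltf: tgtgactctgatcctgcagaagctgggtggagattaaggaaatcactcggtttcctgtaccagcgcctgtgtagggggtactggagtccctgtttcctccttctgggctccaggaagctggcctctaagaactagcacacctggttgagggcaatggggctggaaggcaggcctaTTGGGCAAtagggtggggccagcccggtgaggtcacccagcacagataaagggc
Retnlg: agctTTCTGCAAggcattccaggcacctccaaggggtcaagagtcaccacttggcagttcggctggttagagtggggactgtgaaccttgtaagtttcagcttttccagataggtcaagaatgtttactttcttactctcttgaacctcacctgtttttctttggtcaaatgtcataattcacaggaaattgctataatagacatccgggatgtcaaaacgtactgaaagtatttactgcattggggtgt
Cxcr2: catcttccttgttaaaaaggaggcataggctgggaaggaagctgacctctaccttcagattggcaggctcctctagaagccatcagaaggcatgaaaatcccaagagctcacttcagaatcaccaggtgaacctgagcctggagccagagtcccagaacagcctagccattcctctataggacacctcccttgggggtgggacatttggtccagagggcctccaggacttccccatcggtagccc
Over the 250 bases before each RefSeq start, Ngp had 2 matches to the C/EBP letters (1 of them in the stretch printed), Ltf 1, Retnlg 1, and Camp and Cxcr2 0. The PU.1 letters GAGGAAG, or CTTCCTC on the other strand, which overlap none of these matches, had 0 matches in the 5 windows. Of 32851 promoters in the table, 9.56% hold the C/EBP letters and 10.6% the PU.1 letters in windows of that length. A match is a description of the sequence and not of binding.

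The RNA content of the 2 kinds differed as well. Immature-leaning neutrophils had a median of 6521 UMIs in the aged brain, 15255 in the aged spleen and 16139 in young spleen, against 2258.5, 957 and 2707 in mature-leaning cells. Immature-leaning cells of the aged brain thus held fewer UMIs than those of either spleen, and their highest count, 13433, was below the spleen medians. They supplied 69.4%, 70.1% and 88.5% of all neutrophil UMIs, so a sum over all neutrophils is mostly a sum over immature-leaning cells. For that reason each comparison below is also given within each kind.

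**Figure D3:**
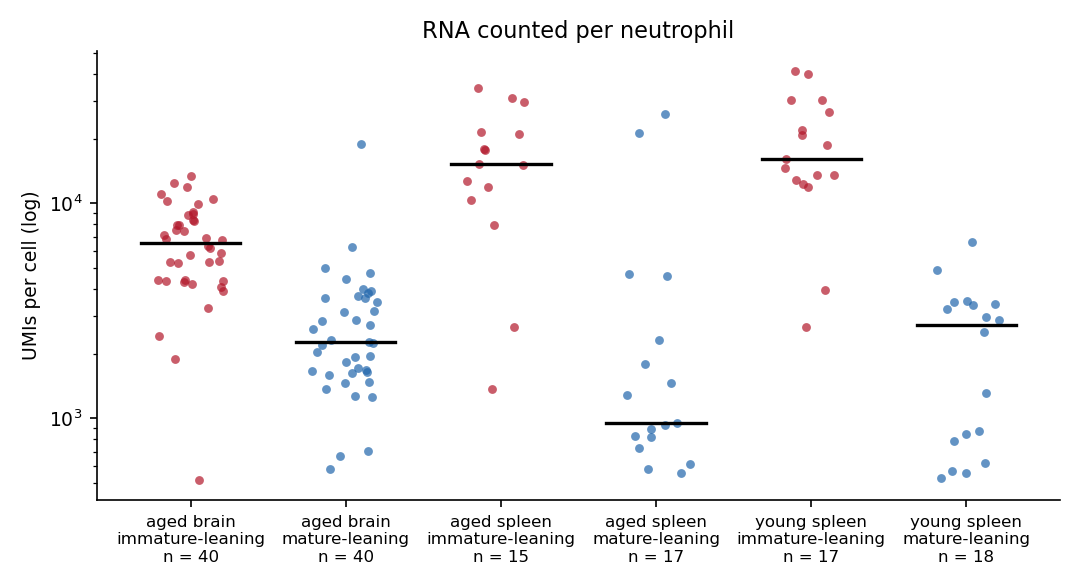
UMIs per neutrophil (log axis) by library and lean; each point is 1 cell and the bar is the median. Immature-leaning cells lie higher than mature-leaning cells in every library, with medians of 6521 against 2258.5 in the aged brain, 15255 against 957 in the aged spleen and 16139 against 2707 in young spleen.

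Beyond the 5 genes that define the lean, immature-leaning cells were high in other secondary granule and cell cycle genes, and mature-leaning cells in cytokine, receptor and early response genes. Among the 139 neutrophils, 453 genes had at least 50 UMIs over both kinds in each of the 3 libraries. Of these, 43 (9.49%) were at least 2-fold higher in immature-leaning cells in all 3 libraries and 62 (13.7%) at least 2-fold lower, while 4 went at least 2-fold in opposite directions in different libraries. With the 10 cells set aside put back, 558 genes were measured, 35 (6.27%) were higher, 39 (6.99%) were lower and 64 went in opposite directions. Counts here are of genes past a fold limit in single libraries, and they carry no test.

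The secondary granule list had 10 of 12 measured genes at least 2-fold higher in immature-leaning cells in all 3 libraries, of which Ngp, Camp and Ltf define the lean. Chil3, a chitinase-like protein, stood at 3401 CPM in immature-leaning cells of the aged brain, 10419 in those of the aged spleen and 11733 in those of the young spleen, against 40.2, 130 and 139 CPM in mature-leaning cells. Fcnb, ficolin B, stood at 969, 320 and 965 CPM in immature-leaning cells and had 0 UMIs in mature-leaning cells of all 3 libraries. Lcn2, the iron-siderophore-binding protein neutrophil gelatinase-associated lipocalin, was less exclusive, at 13974, 16158 and 15948 CPM against 4990, 4385 and 2069 CPM. The list also held the membrane subunit of the NADPH oxidase Cybb and the neutrophil surface protein Cd177. Cell cycle genes had 5 of 6 higher. The proliferation marker Mki67 stood at 351, 396 and 548 CPM in immature-leaning cells, against 0, 43.4 and 0 CPM in mature-leaning cells. Cebpe stood at 418, 456 and 636 CPM against 0, 43.4 and 0 CPM.

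Mature-leaning cells carried the receptors and the inflammatory genes. Csf3r stood at 87.8 CPM in immature-leaning cells of the aged brain, 120 in those of the aged spleen and 96.1 in those of the young spleen, against 1147, 3170 and 3162 CPM in mature-leaning cells. Il1b, the cytokine interleukin-1 beta, stood at 0, 20 and 0 CPM in immature-leaning cells, against 1831, 6122 and 8835 CPM in mature-leaning cells. Both genes were higher in mature-leaning cells in every library, and Il1b was close to absent from the immature-leaning ones. Csf3r is part of the rule, so its levels are a description only. The list of inflammatory cytokines and chemokines had 2 of 2 measured genes lower in immature-leaning cells (Il1b and the neutrophil attractant Cxcl2), the NF-kB feedback list 3 of 3 (Nfkbia, Zfp36 and Tnfaip2) and the immediate early list 5 of 8 (Btg2, Dusp1, Junb, Klf2 and Klf6). Ifitm1, an interferon-induced membrane protein, stood at 4.18, 20 and 0 CPM in immature-leaning cells, against 2686, 3517 and 1465 CPM in mature-leaning cells. The granulopoiesis transcription factors split, with Cebpe higher and Cebpb, Junb, Klf2, Klf6, Mxd1 and Spi1 lower in immature-leaning cells, of 8 measured. Genes of nuclear oxidative phosphorylation (0 of 14) and of hypoxia and glycolysis (0 of 5) passed the limit in neither direction in all 3 libraries.

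**Figure D4:**
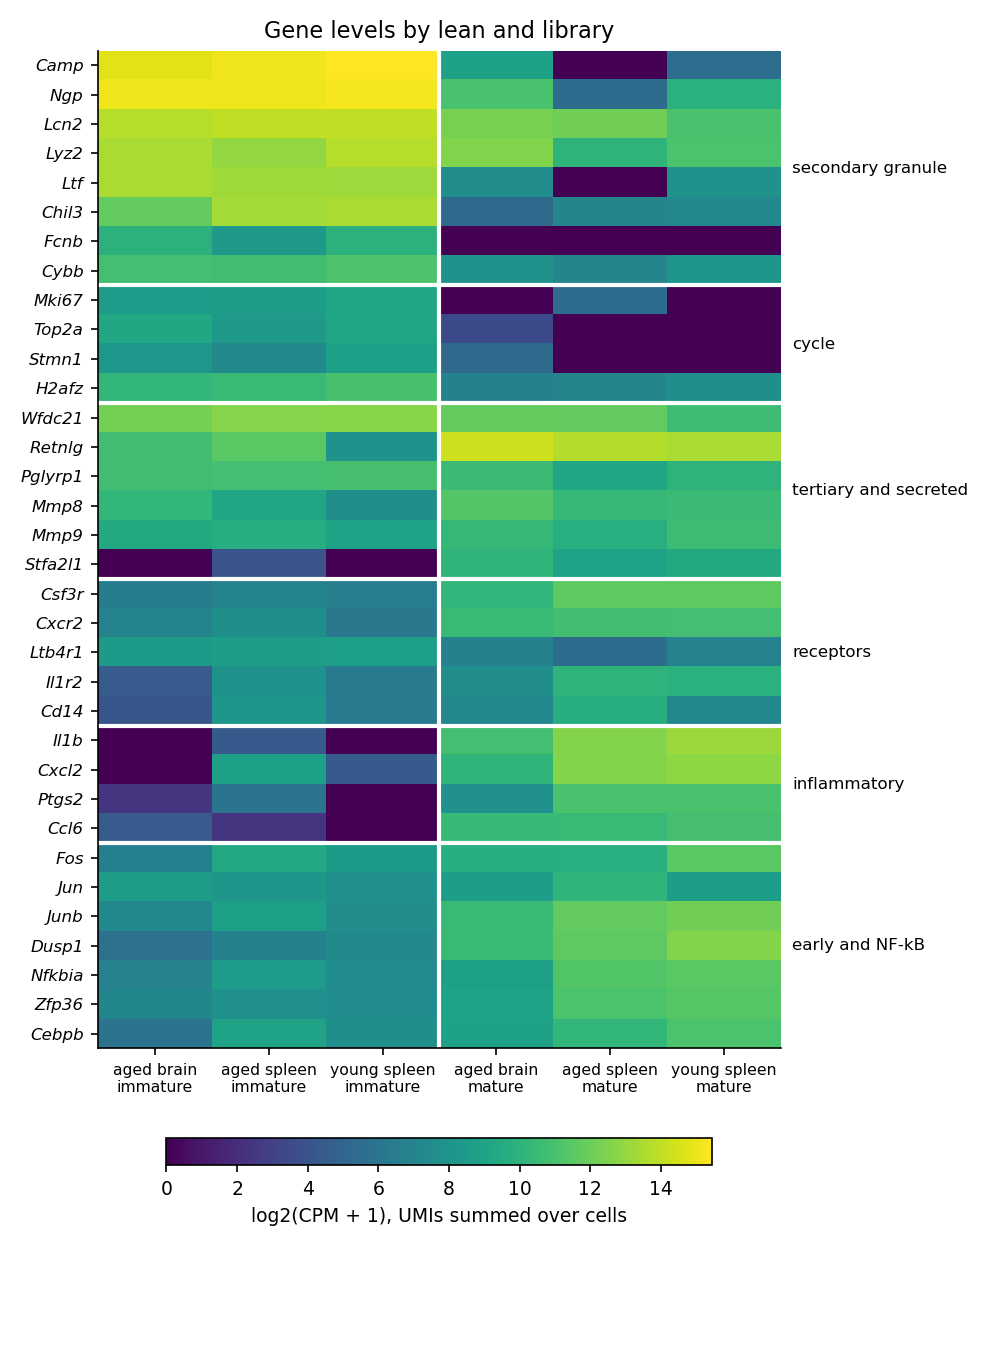
Levels of 34 genes, as log2(CPM + 1) of UMIs summed over cells, in immature-leaning cells (left 3 columns) and mature-leaning cells (right 3 columns) of the aged brain (37 and 39 cells), the aged spleen (15 and 15) and the young spleen (15 and 18), without the 10 cells set aside. Camp, Ngp and Ltf are bright on the left and dark on the right, and Il1b and Cxcl2 are the reverse, with lower values in mature-leaning cells of the aged brain (Il1b 1831 CPM) than of the spleens (6122 and 8835 CPM).

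Cells with both gene sets were found in each library, at the highest share in the aged brain. At least 10 UMIs of the granule genes Ngp, Camp and Ltf and at least 10 of Cxcr2 and Retnlg occurred together in 21 of 80 aged brain neutrophils (26.2%, 17.0 to 37.3%), 6 of 34 aged spleen neutrophils (17.6%, 6.76 to 34.5%) and 3 of 35 young spleen neutrophils (8.57%, 1.80 to 23.1%). Of these, 9 leaned mature in the aged brain, 0 in the aged spleen and 1 in young spleen. The limit of 10 UMIs is easier to reach in a cell with more RNA, and the cells with both sets had a median of 4218 UMIs in the aged brain, 16446.5 in the aged spleen and 12360 in young spleen. With every cell thinned to 500 UMIs, at least 2 UMIs of each set occurred in 15 cells of the aged brain (18.8%), 3 of the aged spleen (8.82%) and 1 of the young spleen (2.86%). The intervals of the libraries, which cover counting error only, overlapped, and this count was chosen after the cells had been seen. Of mature-leaning cells, 24 of 40 in the aged brain, 14 of 17 in the aged spleen and 16 of 18 in young spleen had 0 UMIs of the granule genes. Doublets of an immature and a mature neutrophil were not called, and their part in these counts was not tested.

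Earlier precursors were rare. Elane, neutrophil elastase, had a UMI in 6 of 80 aged brain, 2 of 34 aged spleen and 4 of 35 young spleen neutrophils. The cells richest in the 4 primary granule genes held 756 UMIs of them in the aged brain (of 18880 UMIs), 814 in the aged spleen (of 22009) and 1287 in the young spleen (of 41124). The first 2 of these had 0 UMIs of Ngp, Camp and Ltf, and the third had 165. At least 3 UMIs of the cycle genes Mki67 and Top2a were found in 13 aged brain, 9 aged spleen and 10 young spleen neutrophils, and 12, 7 and 10 of those leaned immature. The aged spleen count includes the red cell-gene cell, which held 74 UMIs of the cycle genes. Cells with RNA of these cycle genes were thus found in the aged brain library as in the spleens.

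Neutrophils of the aged brain were compared with those of the aged spleen to ask how they differ by tissue. Over all neutrophils, 1684 genes had at least 50 UMIs in the 2 libraries together. In the aged brain 120 (7.13%) were at least 2-fold higher and 131 (7.78%) at least 2-fold lower than in the aged spleen, with a median log2 ratio of -0.01 over all genes. The 10 genes ranked first among those higher were microglia or macrophage genes, Cx3cr1, C1qc, C1qa, C1qb, Sparc, Tmem119, Trem2, P2ry12, Olfml3 and Csf1r. All 10 were below their empty-droplet level in the aged brain, as Cx3cr1 shows at 715 CPM in neutrophils against 2314 CPM in empty droplets, although this too is above 11.9% of the empty-droplet level. Among the 10 ranked first as lower, several came from the cells set aside in the aged spleen, such as Fn1 and Ccr2 of monocytes and Slc4a1 and Car2 of red cell precursors. Without the monocyte-gene and red cell-gene cells, 77 of the 131 lower genes were still at least 2-fold lower. The rest of the comparison is given without the 10 cells and within each kind.

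Mature-leaning neutrophils of the aged brain were lower in inflammatory and NF-kB feedback genes than those of the aged spleen and higher in the secondary granule list's Lyz2 and Cd177. The 39 aged brain and 15 aged spleen cells held 99403 and 23032 UMIs, and of 268 genes measured 33 (12.3%) were at least 2-fold higher and 29 (10.8%) at least 2-fold lower in the aged brain, with a median log2 ratio of -0.07. Il1b stood at 1831 CPM in the aged brain, against 6122 CPM in the aged spleen and 8835 CPM in young spleen. The ratio of aged brain to aged spleen was 0.299 (95% exact conditional binomial interval 0.239 to 0.375, counting error only, as for all ratios here). Over all neutrophils, where immature-leaning cells supply most UMIs, the Il1b ratio was 1.08. Il1b was found in 26 of 39 cells in the aged brain and 13 of 15 in the aged spleen, although the aged brain cells were deeper (medians of 2242 and 928 UMIs). The 2 sets of cells also differed in granule RNA. With the set-aside cells included, 24 of 40 mature-leaning aged brain cells and 14 of 17 in the aged spleen had 0 UMIs of Ngp, Camp and Ltf. In the aged brain, Il1b reached 22 UMIs in mature-leaning cells with 0 granule UMIs and at most 4 in the others. The part of this in the ratios was not tested. Cxcl2 stood at 1117 CPM in the aged brain against 6296 CPM in the aged spleen (ratio 0.177, 0.137 to 0.229). Nfkbia, the NF-kB inhibitor that NF-kB itself induces, stood at 433 CPM against 2475 CPM (0.175, 0.115 to 0.264). Zfp36, which destabilises cytokine mRNA, stood at 503 CPM against 2171 CPM (0.232, 0.153 to 0.350). Each of these 4 genes was lower in the aged brain, and each was above its empty-droplet level in the aged spleen.

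Single cells supplied much of the aged spleen level. One cell of 4680 UMIs held 51.8% of the Il1b UMIs, and 1 cell held 52.6% of those of Nfkbia. The cell of 4680 UMIs leaned mature on 1 UMI of Cxcr2 against 0 of the granule genes, and 67 of its UMIs were of S100a8 and S100a9. Without the cell richest in each gene in each library, the ratio was 0.443 for Il1b, 0.251 for Nfkbia, 0.284 for Cxcl2 and 0.313 for Zfp36. With 38 aged brain and 12 aged spleen cells at barcodes that passed in no other library, it was 0.376 for Il1b, 0.220 for Nfkbia, 0.180 for Cxcl2 and 0.353 for Zfp36. All 4 stayed at least 2-fold lower in the aged brain under both settings. Both settings kept the aged brain cells with granule RNA, and whether the 4 genes stay lower among cells without it was not tested. Fos did not: it stood at 805 CPM in the aged brain against 868 CPM in the aged spleen (0.927, 0.562 to 1.598), and at a ratio of 2.26 without the shared barcodes. Ptgs2, the prostaglandin synthase COX-2, stood at 221 CPM in the aged brain against 2041 CPM in the aged spleen, but in the aged spleen it had UMIs in 2 cells, with 85.1% in 1.

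As lists, NF-kB feedback had 2 of 3 measured genes at least 2-fold lower in mature-leaning cells of the aged brain (median log2 ratio -2.11), inflammatory cytokines and chemokines 2 of 3 (-1.74), granulopoiesis transcription factors 4 of 6 (-1.18) and immediate early genes 7 of 8 (-1.11), against -0.07 over all genes. Without the shared barcodes the medians were -1.50, -1.41, -0.94 and -0.94, with fewer genes measured in the last 2 lists. Of the immediate early genes, Klf2 (0.311) was then at least 2-fold lower and Fos (2.26) at least 2-fold higher. Btg2 (0.514), Junb (0.523) and Dusp1 (0.555) fell short of the limit. Of the granulopoiesis factors, Cebpb (0.345) and Klf2 were past it, and Junb, Mxd1 (0.705) and Spi1 (0.726) were not. Csf3r and Cxcr2 are part of the rule, so their levels are a description only. Csf3r stood at 1147 CPM in the aged brain against 3170 CPM in the aged spleen (ratio 0.362, 0.267 to 0.492). Cxcr2 was at 1429 against 1780 CPM (0.802, 0.563 to 1.17), an interval that includes 1. The Csf3r ratio was 0.363 without the shared barcodes. The secondary granule list ran the other way, with 3 of 6 genes at least 2-fold higher and a median log2 ratio of 1.25, and 1 of the 3, Ngp, is part of the rule and of the lean. Lyz2, lysozyme, stood at 5875 CPM in the aged brain against 1085 CPM in the aged spleen (5.41, 3.63 to 8.43). Cd177 stood at 634 CPM against 174 CPM, from 63 and 4 UMIs (3.65, 1.36 to 13.8). As a description only, Ngp had 209 UMIs in 16 of 39 aged brain cells and 1 UMI in 15 aged spleen cells (48.4, 8.60 to 1922), and without the richest cell of each library the ratio was 12.1. Without the shared barcodes Lyz2 had a ratio of 4.89, Cd177 of 3.70 (0.983 to 31.2) and Ngp of 24.6. Ncf1, a cytosolic subunit of the NADPH oxidase, had 66 UMIs in the aged brain and 2 in the aged spleen (7.65, 2.03 to 64.5). Without the shared barcodes it had 66 of 97475 and 0 of 11455 UMIs, a ratio of 2.59 with the 0 set at the floor. Retnlg, which is part of the lean, stood at 20362 against 12895 CPM (1.58, 1.40 to 1.79), and at a ratio of 1.06 without the shared barcodes.

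Immature-leaning neutrophils of the aged brain had secondary granule genes near the aged spleen level and were lower in several receptor and early response genes. The 37 aged brain and 15 aged spleen cells held 239309 and 250027 UMIs, and of 950 genes 69 (7.26%) were at least 2-fold higher and 83 (8.74%) at least 2-fold lower in the aged brain, with a median log2 ratio near 0 (-0.002). Ngp stood at 35038 CPM in the aged brain against 34604 CPM in the aged spleen, Camp at 28440 against 35920 CPM, and Ltf at 11379 against 9811 CPM, so that none of the 3 reached the 2-fold limit. Within the secondary granule list of 13 genes, 1 was at least 2-fold higher and 2 lower. They were Fcnb, at 969 against 320 CPM (ratio 3.03, 2.34 to 3.96), Chil3, at 3401 against 10419 CPM (0.326, 0.301 to 0.353), and Olfm4, olfactomedin 4, at 46.0 against 216 CPM (0.213, 0.100 to 0.412). Chil3 had UMIs in 33 of 37 aged brain and 15 of 15 aged spleen cells, Fcnb in 22 and 11, and Olfm4 in 1 and 2.

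The genes that were lower in the aged brain in immature-leaning cells included surface receptors and early response genes. Cd14, a co-receptor for bacterial lipopolysaccharide, stood at 16.7 CPM in the aged brain against 292 CPM in the aged spleen (ratio 0.057, 0.015 to 0.153), with UMIs in 3 of 37 and 12 of 15 cells. Plaur, the urokinase receptor, stood at 58.5 against 604 CPM (0.097, 0.052 to 0.168). Il1r2, the decoy receptor for interleukin-1, stood at 20.9 against 240 CPM (0.087, 0.027 to 0.215). These 3 receptors were each present in 12 or more of the 15 aged spleen cells. Cebpb, a transcription factor of emergency granulopoiesis, stood at 58.5 against 484 CPM (0.121, 0.064 to 0.211), and Fos, an immediate early factor, at 100 against 648 CPM (0.155, 0.096 to 0.239). The immediate early list had 6 of 10 measured genes at least 2-fold lower (median log2 ratio -1.45), but 9 of the 10 were below the empty-droplet level of the library where they were higher. Free RNA was estimated at 1.78% of neutrophil UMIs in the aged spleen, and its part in these low levels was not tested. Cxcl2 had 0 UMIs in the aged brain and 113 in the aged spleen, of which 90.3% were in 1 cell.

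Some genes moved the same way in both kinds. Of 248 genes measured in both, 10 (4.03%) were at least 2-fold lower in the aged brain in immature-leaning and in mature-leaning cells, namely Cd44, Cebpb, Cxcl2, Fxyd5, Junb, Kdm6b, Klf2, Nfkbia, Pim1 and Srgn. Srgn, serglycin, the proteoglycan that packs granule proteins, had ratios of 0.148 (0.076 to 0.265) in immature-leaning and 0.385 (0.302 to 0.493) in mature-leaning cells. Pim1, a cytokine-induced kinase, had ratios of 0.064 (0.017 to 0.173) and 0.192 (0.118 to 0.310). Junb, of the AP-1 family, had ratios of 0.345 (0.230 to 0.507) and 0.388 (0.292 to 0.519). Without the shared barcodes, mature-leaning cells gave 0.347 for Srgn and 0.523 for Junb, the second short of the 2-fold limit. In immature-leaning cells 7 of the 10 were below the aged spleen's empty-droplet level, all but Cd44, Cebpb and Cxcl2, whereas in mature-leaning cells none was. At least 2-fold higher in both kinds were 15 genes (6.05%), and 14 of them, led by Ttr, C1qa and Cx3cr1, were below the aged brain's empty-droplet level. The other was Ly6g, the surface protein used to identify mouse neutrophils, at 527 against 248 CPM in immature-leaning cells (2.12, 1.55 to 2.93) and 493 against 217 CPM in mature-leaning cells (2.27, 0.910 to 7.30, from 49 and 5 UMIs). Slfn4, an interferon-induced gene, went in opposite directions, with ratios of 2.04 (1.21 to 3.54) in immature-leaning and 0.463 (0.281 to 0.782) in mature-leaning cells, but the second was 0.720 without the shared barcodes.

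Histone genes were also higher in the aged brain, a group chosen after its values had been seen. Over all neutrophils 14 of 16 measured histone genes were at least 2-fold higher, with a median log2 ratio of 2.05, and in immature-leaning cells without the set-aside ones 9 of 11 were (1.91). Hist1h1b, a linker histone of dividing cells, stood at 685 CPM in 8 immature-leaning cells of the aged brain against 99.99 CPM in 3 of the aged spleen (6.85, 4.48 to 10.9). Mki67 in the same cells stood at 351 against 396 CPM (0.886, 0.655 to 1.20) and Top2a at 589 against 320 CPM (1.84, 1.39 to 2.45), below the 2-fold limit, although Top2a had a ratio of 2.65 without the richest cell of each library. Over all neutrophils, thinning each cell to 500 UMIs gave ratios below 1 for Hist1h1d (0.992) and Hist2h2aa1 (0.708), and leaving out the shared barcodes, and with them all but 1 immature-leaning aged spleen cell, did so for Hist1h1d (0.912), Hist2h2aa1 (0.600) and Hist2h2ac (0.834).

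Neutrophils of the aged spleen were compared with those of the young spleen to ask how they differ with age. Over all neutrophils, 1652 genes were measured, of which 76 (4.6%) were at least 2-fold higher and 52 (3.15%) at least 2-fold lower in the aged spleen, with a median log2 ratio of -0.06. Averaging CPM over cells instead of summing UMIs gave 146 higher and 165 lower. Among the genes ranked first as higher were Fn1, Slc4a1, F13a1, Ccr2, Stfa1, Car2, Bc1, Prdx2 and S100a4, and the ranking was led by genes of the 2 monocyte-gene cells and the red cell-gene cell of the aged spleen. Without the 10 set-aside cells the numbers were 17 (1.45%) and 27 (2.31%) of 1171 genes, with a median log2 ratio of -0.10. For the aged brain over the aged spleen the same counts were 121 (9.39%) higher, microglia and macrophage genes among them, and 85 (6.6%) lower of 1288. Over all neutrophils without the shared barcodes, 168 genes were higher and 164 lower of 844 in the aged brain over the aged spleen, and 149 higher and 151 lower of 748 in the aged over the young spleen. The 2 comparisons share the aged spleen cells, and no test of their difference was possible.

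Among the genes that differed between the spleens without those cells, Il1b had a ratio of 0.412 over both kinds. Over all neutrophils the Il1b ratio was 0.428, and 3.41 without the shared barcodes, where 1 of 13 aged spleen cells leaned immature. Cd14 had a ratio of 3.75 (2.40 to 6.05). Retnlg, which is part of the rule, had a ratio of 2.01 (a description only), and Fcnb of 0.356. Stfa1, a stefin family member, was ranked among the higher genes but came from 1 cell in each library. The remaining differences are described by kind, since no gene of 140 measured in both was at least 2-fold higher in both kinds (0%) or lower in both (0%), and Clec4e and Egr1 went past the limit in opposite directions. Clec4e, a receptor for damaged cells and fungi, had ratios of 2.81 (1.56 to 5.33) in immature-leaning and 0.389 (0.176 to 0.779) in mature-leaning cells, but the second was 0.704 without the shared barcodes.

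Mature-leaning neutrophils of the aged spleen were at least 2-fold lower than those of the young spleen in 3 of 9 measured immediate early genes, Fos, Egr1 and Ier2. The 15 aged and 18 young spleen cells held 23032 and 43012 UMIs, and of 155 genes 11 (7.1%) were at least 2-fold higher and 13 (8.39%) lower, with a median log2 ratio of -0.19. Fos stood at 868 CPM in the aged spleen against 2929 CPM in the young spleen (ratio 0.296, 0.175 to 0.477), with UMIs in 4 of 15 and 17 of 18 cells, and at a ratio of 0.119 without the shared barcodes. Egr1, another immediate early factor, stood at 695 against 1651 CPM (0.421, 0.228 to 0.731), and Dusp1, a phosphatase that limits MAP kinase signalling, at 3213 against 6161 CPM (0.521, 0.397 to 0.677). Ier2 had a ratio of 0.373 (0.183 to 0.701), and the other 5 lay between 0.590 for Ier5 and 1.13 for Klf6. Without the shared barcodes Egr1 was at 0.106, Ier2 at 0.313 and Dusp1, then past the limit, at 0.411. The list had a median log2 ratio of -0.76, and of -1.05 over 8 genes without the shared barcodes. Il1b stood at 6122 against 8835 CPM (0.693, 0.567 to 0.843), short of the 2-fold limit, but at a ratio of 0.479 without the richest cell of each library and 0.494 without the shared barcodes, both past it. The aged spleen cells were shallower, with a median of 928 UMIs against 2707. Higher in the aged spleen were Ifitm1, at 3517 against 1465 CPM (2.40, 1.71 to 3.39), and Lcn2, at 4385 against 2069 CPM (2.12, 1.58 to 2.85). Of the Lcn2 UMIs, 1 cell held 52.5% in the aged spleen, and 1 cell held 47.2% in young spleen. Without the shared barcodes the ratio was 3.93 for Ifitm1 and 1.69 for Lcn2, the second below the limit. As a description only, Csf3r was level, at 3170 against 3162 CPM (1.002, 0.744 to 1.34), and Cxcr2 at 1780 against 1860 CPM (0.957, 0.640 to 1.41).

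Immature-leaning neutrophils of the aged spleen were higher than those of the young spleen in the 3 interferon-induced genes measured. The 15 and 15 cells held 250027 and 249812 UMIs, and of 981 genes 43 (4.38%) were at least 2-fold higher and 30 (3.06%) lower, with a median log2 ratio of -0.05. As a description only, since both genes are part of the rule and of the lean, Retnlg stood at 2968 CPM in the aged spleen against 236 CPM in the young spleen (ratio 12.6, 9.63 to 16.7), and at 9.12 without the richest cell of each library, as 47.4% of the aged spleen UMIs were in 1 cell. Of 742 Retnlg UMIs, 2 of the 15 aged spleen cells held 352 and 296, and the other 13 held 0 to 22 each, against 0 to 16 in the young spleen cells. The cell with 296 lay within 2-fold of the line that divides the leans, at 538 UMIs of granule genes against 300 of Cxcr2 and Retnlg. Cxcr2 stood at 204 against 72.1 CPM (2.83, 1.63 to 5.15), and the calcium-binding S100a6 at 1064 against 212 CPM (5.01, 3.72 to 6.87). All but 1 of these 15 aged spleen cells stood at shared barcodes. The interferon-induced genes Ifitm2 (852 against 160 CPM, 5.32, 3.78 to 7.66), Ifitm3 (1184 against 556 CPM, 2.13, 1.73 to 2.62) and Ifitm6 (3584 against 1753 CPM, 2.04, 1.82 to 2.30) were all at least 2-fold higher, 3 of 3 measured of a list of 30, with a median log2 ratio of 1.09. The immediate early list had 3 of 10 genes at least 2-fold higher (median log2 ratio 0.62), with 9 of the 10 below the empty-droplet level. In mature-leaning cells Ifitm6 was on the other side, at 521 against 1023 CPM (0.509, 0.245 to 0.981), but 70.5% of the young spleen UMIs were in 1 cell and the ratio without the richest cells was 1.03. The secondary granule list had 0 of 13 genes higher and 1 lower (median -0.16), the lower one being Fcnb at 320 against 965 CPM (0.332, 0.254 to 0.429). The cell cycle list had 2 of 12 lower and 0 higher (-0.51), and Stmn1, a microtubule regulator of dividing cells, stood at 164 against 420 CPM (0.390, 0.265 to 0.565).

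**Figure D5:**
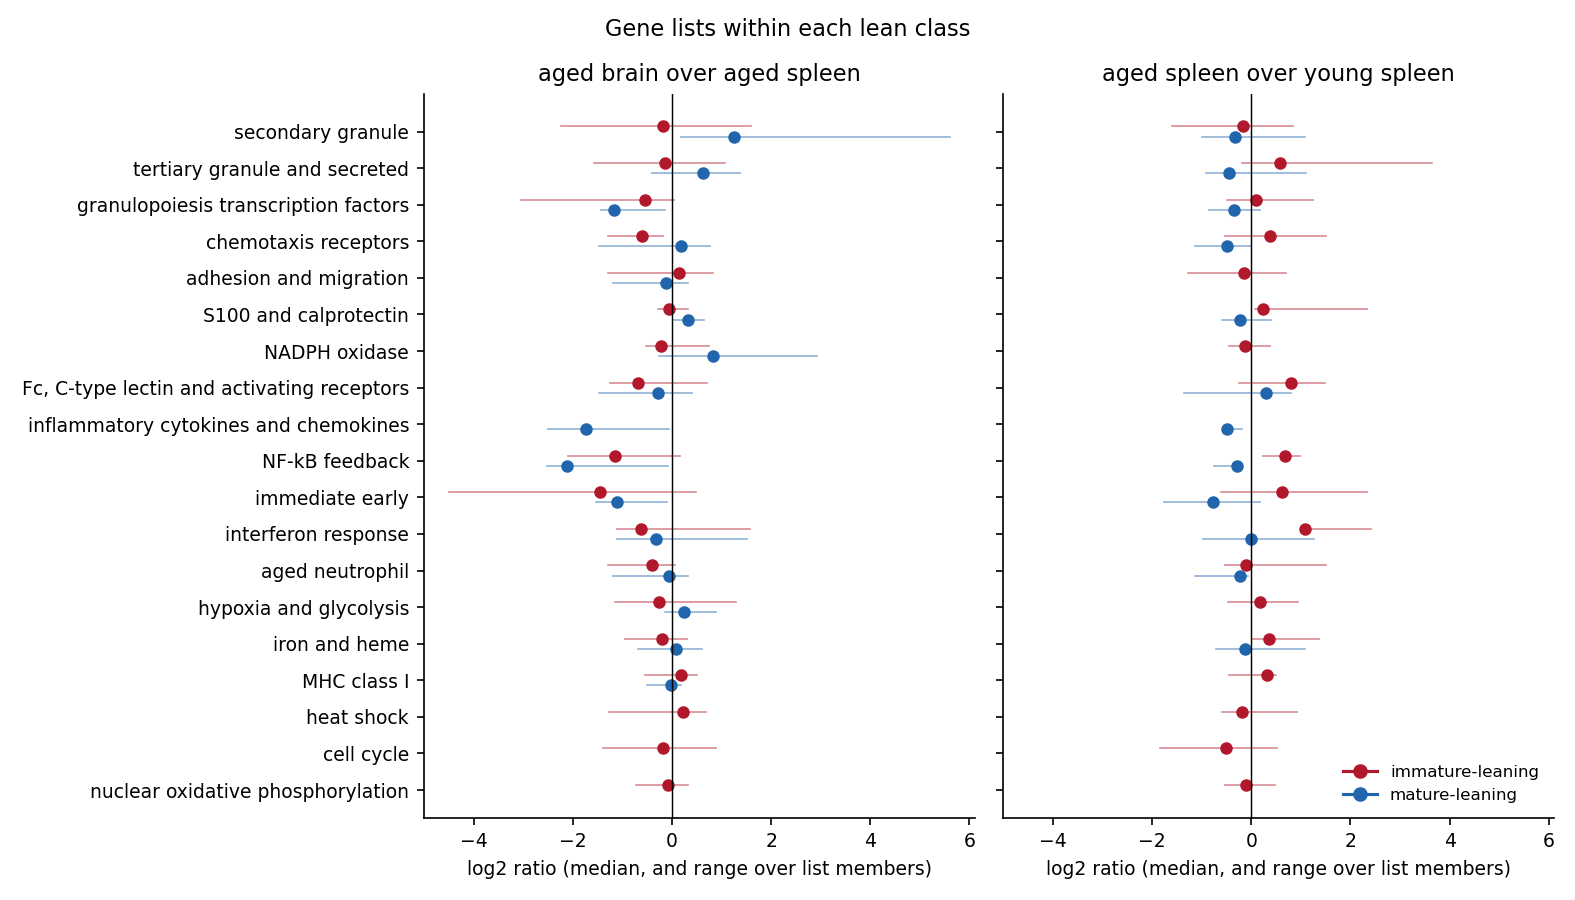
Median log2 ratio (points) and range over measured members (lines) of each gene list with at least 3 measured members, for the aged brain over the aged spleen (left) and the aged spleen over the young spleen (right), in immature-leaning (red) and mature-leaning (blue) neutrophils without the 10 set-aside cells. NF-kB feedback and immediate early genes lie below 0 in both kinds in the left panel (-1.15 and -1.45 in immature-leaning, -2.11 and -1.11 in mature-leaning cells), and in the right panel they lie above 0 in immature-leaning cells (0.69 and 0.62) and below 0 in mature-leaning cells (-0.28 and -0.76).

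In immature-leaning cells, several lists had few or no genes past the limit in either comparison. Nuclear oxidative phosphorylation had 0 of 23 measured genes past the limit in immature-leaning cells of the aged brain against the aged spleen (median -0.07) and 0 of 23 in those of the aged against the young spleen (-0.10). The NADPH oxidase list had 0 of 7 in both (-0.22 and -0.13). In mature-leaning cells it had 2 of 4 higher in the aged brain over the aged spleen (median 0.83), Ncf1 and the membrane subunit Cyba, the second at 1177 against 521 CPM (2.26, 1.25 to 4.50). Between the spleens 1 of 2 was lower, Cyba at 521 against 1186 CPM (0.439, 0.213 to 0.835). The Cyba ratios were 1.72 and 0.589 without the shared barcodes, neither past the limit. In immature-leaning cells, MHC class I had 0 of 3 in both (0.17 and 0.32), with 3 of 3 below the empty-droplet level. The aged neutrophil list, of genes tied to the time a neutrophil has spent in the circulation, had 1 of 4 lower in the aged brain in immature-leaning cells (Cd44, median -0.40) and 1 of 5 in mature-leaning cells (-0.05). Hypoxia and glycolysis genes had 1 of 10 higher and 1 lower in immature-leaning cells of the aged brain (-0.26), and 0 of 10 past the limit between the spleens (0.18).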

How the data were processed

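Each deposited matrix lists unfiltered UMI counts, all whole numbers, for 31053 genes and 6794880 barcodes, with software version 3.1.0, per the file headers. Cells were captured with a 10x Chromium 3′ kit, per the labels' protocols. Cell Ranger 1.3.1 and the human build GRCh38 stand in the submitters' processing notes, which goes against the mouse gene identifiers, so the software behind the counts is uncertain. How reads matching several genes were counted is not stated in what was available here, so genes with near-identical copies, histone and stefin genes among them, are uncertain. The authors' deposited cluster tables give the fraction of cells with a gene, printed here as a percent, and their log ratios and p-values were not used.

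Neutrophils and the lean were called from UMIs as the report states, with no clustering. Doublets were not called, and the rule bars only barcodes with B or T cell genes. The neutrophils, the gene lists and the rules were chosen with earlier results of these data known. UMIs were summed per library and divided by the total to give CPM. A gene was measured at 50 UMIs or more over the 2 libraries and called at a 2-fold difference. With 1 library per condition there is no test between conditions, and intervals (95%, exact conditional binomial for ratios, Clopper-Pearson for shares) cover counting error only. A gene at 0 on 1 side was set at a floor of 3 counts for its library. The genes named first in each comparison were the 10 each way whose interval bound lay farthest from 1, leaving out immunoglobulin, T cell receptor, haemoglobin, ribosomal, mitochondrial, sex and unnamed genes and genes whose level was under 10% of that in another gated class. Added to them were the markers and up to 4 of the best-counted members of each of 23 lists, and other genes were named after their values had been seen. Setting aside 10 cells and comparing within the lean were also chosen after the data were seen. The ratio code was tested on simulated counts. Python 3.11.15, numpy 2.4.6, scipy 1.17.1, pandas 2.3.3 and matplotlib 3.10.9 were used.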

Additional observations from a re-analysis of the deposited data

Results flagged for a closer look

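The young brain library was outside every comparison above. By the same rule it held 25 neutrophils among 8994 passing barcodes, of which 21 stood at barcodes with more UMIs in another library and 19 were also neutrophils of the aged spleen library, with which the young brain shares 4856 passing barcodes. The other 4 had more UMIs in the young brain than in any other library (0.0445% of passing barcodes, where a count of 0 allows up to 0.0334%). That limit stands for 3 counts, so 4 barcodes lie close to it. Whether these 4 are neutrophils of the young brain was not tested.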

How the results depend on the processing

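No paired analysis was possible because each condition is 1 library, and no replicate could be left out. Of the gene ratios recomputed, 3343 stayed within their interval, 1111 moved outside it, and 37 of genes at least 2-fold in the main setting crossed 1. Crossings of 1 by other genes are counted under the first 2 numbers. The cause of a crossing was not tested. A mitochondrial limit of 5% gave neutrophil shares of 0.775% (aged brain), 1.27% (aged spleen) and 0.779% (young spleen), and 80 genes lower in the aged than in the young spleen, as did leaving out each gene's richest cell (80). A limit of 20% gave 224 genes higher in the aged brain. A minimum of 1000 UMIs gave an aged brain share of 0.753%. Leaving out cells with RNA of other types left 4 in the aged brain (25% immature-leaning), so its gene ratios were not run. Their share, 0.0293%, is of all passing barcodes, from which barcodes with RNA of other types were not taken out. The other settings are given first for the aged brain over the aged spleen (120 higher, 131 lower) and then for the aged over the young spleen (76 higher, 52 lower), where they moved. A minimum of 20 UMIs per gene gave 389 and 422, then 257 and 251, and no minimum gave 897 and 996, then 760 and 602. The mean over cells gave 183 higher, with Ccl6 at 0.951 and Ifitm1 at 0.727, then 146 and 165, with Stfa1 at 0.361. Thinning to 500 UMIs gave 189 higher, with Hist1h1d and Olfml3 at 0.992, Hist2h2aa1 at 0.708 and Ifitm1 at 0.584, then 148 and 142, with Stfa1 at 0.515. Immature-leaning cells gave 84 lower, with Retnlg at 0.513, then 158 lower. Mature-leaning cells gave 61 and 49, then Ifitm6 at 0.279 and S100a6 at 0.667. Without monocyte-gene and red cell-gene cells 33 were higher in the aged spleen, and without all 10 set-aside cells 85 were lower in the aged brain, then 17 and 27. Within these, immature-leaning cells gave 69 and 83, with Retnlg at 0.574, then 43 and 30. Mature-leaning cells gave 33 and 29, with Ccl6 at 0.964 and Ifitm1 at 0.764, then 11 and 13, with Ifitm6 at 0.509. Those at barcodes passing in no other library gave 34 and 28, with Ccl6 at 0.644, Fos at 2.26, Gm5483 at 0.823 and Ifitm1 at 0.408, then 7 and 11, with Ifitm6 at 0.768. All neutrophils at such barcodes gave an aged spleen share of 0.230% (7.69% immature-leaning). This is a share of all 5647 passing barcodes of the aged spleen. The 4856 of them that also passed in the young brain library were not taken out, so it cannot be set against the 0.602% of the main setting. In the first comparison, Ccl6 was then at 0.191, Gm5483 at 0.233, Hist1h1d at 0.912, Hist2h2aa1 at 0.600, Hist2h2ac at 0.834, Ifitm1 at 0.116, Olfml3 at 0.667, Retnlg at 0.354, Slc40a1 at 0.689, Stfa2l1 at 0.459 and Tmem119 at 0.811. In the second, 149 genes were higher and 151 lower, with Hist1h3c at 1.13, Ifitm6 at 0.538, Il1b at 3.41, Ms4a3 at 1.22, Rnaset2b at 1.53 and Rrm2 at 1.297. Chosen after seeing the data were immature-leaning cells alone, leaving out monocyte-gene, red cell-gene or primary granule-gene cells, leaving out the richest cell or barcodes passing in another library, and subtracting empty-droplet RNA. With 34 to 80 cells a library, genes at few UMIs per cell cannot be compared.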
